A study of Mus musculus with 9 samples.

Results

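The 54 mitotic spindle and G2/M genes are a list of symbols (cyclins, kinases, checkpoint, centromere, kinetochore, kinesin, cytokinesis and chromosome genes), and their rows were taken from a table of 31685 genes by Ensembl identifier. All 54 were found, each once. The measurements are RNA sequencing of jejunal tissue from wild-type male C57BL/6J mice, 6 to 8 weeks old, with 3 mice in each of 3 groups. The control group was untreated. The TAI group received 12 Gy of X-rays to the whole abdomen (total abdominal irradiation) and then phosphate-buffered saline, and the TAI/IVIg group received the same irradiation followed by 500 mg/kg of human intravenous immunoglobulin within the hour. All jejuna were taken on day 3. The labels call the tissue epithelial, and all 9 libraries carry the same batch label. There was no group with immunoglobulin alone, so an effect of IVIg can be read only on top of irradiation. The study's methods describe frozen jejunal tissue with RNA extracted by TRIzol, and give no step that separates the epithelium for sequencing.

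A cell that has copied its DNA passes from G2 into mitosis when cyclin-dependent kinase 1 (CDK1) binds cyclin B, and the spindle then attaches to the chromosomes through the kinetochores, protein assemblies on the centromeres. The spindle assembly checkpoint holds the cell until every kinetochore is attached, after which the anaphase promoting complex, with its activator CDC20, marks cyclin B and securin for destruction, the sister chromatids part, and cytokinesis divides the cell. In the small intestine, dividing cells lie in the crypts, where stem cells and their transit-amplifying daughters renew the epithelium, while the enterocytes of the villi have left the cell cycle. Genes of this program are transcribed in a wave that peaks in G2 and mitosis, and many of their promoters carry a cell cycle genes homology region (CHR), read by the DREAM and MuvB complexes, beside CCAAT boxes, which bind NF-Y.

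The letters of these motifs were looked for in RefSeq windows of 300 bases (250 before the gene start and 50 after it, GRCm38.p6), on both strands, as TTTGAA or TTCGAA for the CHR, CCAAT for the NF-Y box and TTTGGCGC or TTTCGCGC for the E2F site. None of these motifs holds another. A window was given for 47 of the 54 members, 53 windows in all, and none for Aurkb, Ccna2, Incenp, Kif20a, Smc4, Spc24 and Tpx2. CHR letters stood in the windows of 36 of the 47 members (76.6%) and of 21.7% of all 27025 genes with a window. The CCAAT box was found in 36 of the 47 (76.6%) and in 41.1% of all genes, both motifs in the same window in 31 members (66.0%) and in 8.61% of all genes, and the E2F letters in 3 members (6.38%) and in 0.929% of all genes. A match is only a run of letters, which was not tested as a binding site.

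The sequence before the gene start is shown for 4 members of different roles that hold these letters, with motif letters in capitals. Each run has 170 bases, is written 5′ to 3′ on the gene's strand and ends before the start of both the RefSeq and the GENCODE gene model. The windows are chr10:69352939-69353108 for Cdk1 (minus strand), chr9:70421555-70421724 for Ccnb2 (minus strand), chr4:118437353-118437522 for Cdc20 (minus strand) and chr7:135716380-135716549 for Mki67 (minus strand), all in GRCm38.p6.
Cdk1: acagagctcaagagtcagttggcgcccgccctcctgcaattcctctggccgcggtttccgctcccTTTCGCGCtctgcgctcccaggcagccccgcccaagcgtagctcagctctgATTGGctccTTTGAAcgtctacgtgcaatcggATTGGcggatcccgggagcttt
Ccnb2: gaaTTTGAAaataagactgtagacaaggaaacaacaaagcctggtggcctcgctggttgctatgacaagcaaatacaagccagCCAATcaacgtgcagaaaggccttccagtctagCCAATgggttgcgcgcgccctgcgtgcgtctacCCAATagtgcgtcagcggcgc
Cdc20: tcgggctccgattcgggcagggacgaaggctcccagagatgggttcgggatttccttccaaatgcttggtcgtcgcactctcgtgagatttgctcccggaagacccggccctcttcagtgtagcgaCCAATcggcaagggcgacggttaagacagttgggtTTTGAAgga
Mki67: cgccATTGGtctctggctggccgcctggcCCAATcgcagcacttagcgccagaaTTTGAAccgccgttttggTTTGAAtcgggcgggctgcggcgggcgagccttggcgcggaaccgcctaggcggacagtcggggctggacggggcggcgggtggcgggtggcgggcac
Cdk1 shows CHR letters, CCAAT boxes on the reverse strand (printed as ATTGG) and E2F letters. Ccnb2 has 3 CCAAT boxes and a CHR match far upstream, with a second CHR match that begins at base 5 of the RefSeq transcript and lies outside the run shown. Cdc20 has a CHR match near the start and a CCAAT box, and Mki67 has a pair of CHR matches and CCAAT boxes on both strands. Outside the runs lie a CHR match at base -15 and a CCAAT box at -208 for Cdk1. A CCAAT box at -8 for Cdc20 and one at -188 for Mki67 also lie outside. With a site that reads the same on both strands or lies in overlapping windows counted once, 23 of the 49 CHR matches and 4 of the 86 CCAAT boxes began after the nearest gene start. Members with CHR letters had a median level of 12.6% of the control mean in TAI, against 17.1% for the 11 matched members without them, and of 7.05% against 7.64% in TAI/IVIg. For the CCAAT box the TAI medians were 14.0% with it and 13.2% without, and for both motifs together 13.7% and 14.3%. These medians are a description of the members, with no test.

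**Figure D1:**
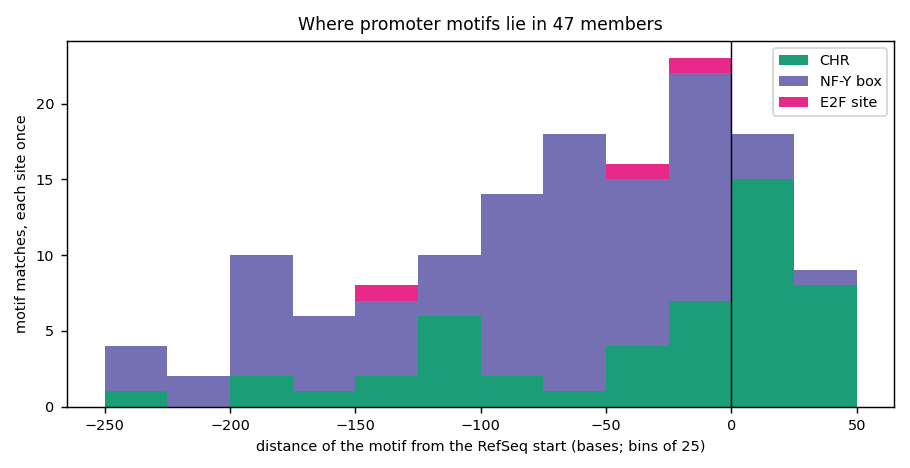
Motif matches in the 53 windows of 47 members by distance from the nearest RefSeq gene start, each site once, in bins of 25 bases, counted on the y axis and stacked by motif (CHR green, NF-Y box purple, E2F pink). Matches of the NF-Y box lie mostly before the start, and 23 of the 49 CHR matches lie after it.

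Each library held 16282129 to 18241963 reads on genes, recovered from the deposited FPKM (fragments scaled to gene length and to the reads of the library), and the groups' depths overlapped. A gene was tested when it had at least 1 FPKM in at least 3 mice, which 13056 genes did. Of the 54 members, 40 passed and 14 did not, and 17 of the 40 passed only through the control mice, since no irradiated mouse reached 1 FPKM. These 17 were Ccnb1, Cdk1, Bub1, Bub1b, Mad2l1, Cdca3, Cenpa, Cenpe, Spc24, Aurkb, Kif11, Kif4, Kif23, Tpx2, Nusap1, Racgap1 and Ncaph. A member that passed in this way had to differ between the groups, so the counts over the 40 are not support on their own. The same holds for the adjusted p-values of these 17 with the filter. The values of all 54 were also taken from a fit without the filter. There the adjusted p of the 17 ran from 0.0041 (Kif4) to 0.0498 (Ncaph) in TAI against control. Differences are in log2(FPKM + 1) from limma with 3 mice a group, each with its SE, and that scale understates the change of genes of low level. The p-values measure the spread between these mice. All changes are per unit of sequenced RNA, and in bulk tissue fewer dividing cells and less RNA of these genes per cell cannot be told apart.

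Control mouse 1 stood apart from the other control mice on these genes. It was the lowest control mouse for 54 of the 54 members, with a median level of 47.4% of the control mean, against 130.4% in control mouse 2 and 120.0% in control mouse 3. The summed FPKM of the members was 194.9 in control mouse 1, 439.3 in control mouse 2 and 404.1 in control mouse 3. TAI mice reached 68.7, 94.9 and 71.2, and TAI/IVIg mice 55.3, 68.9 and 47.8, so that every irradiated mouse lay below control mouse 1. Within the TAI/IVIg group, mouse 2 was the highest for 52 of the 54 members.

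Markers of other cell types differed between the mice as well. The summed FPKM of 6 absorptive enterocyte markers was 8720.4 to 13919 in the control mice, 18400.5 to 31526 in the TAI mice and 28087 to 29849 in the TAI/IVIg mice, and 4 of the 6 were higher in TAI. Fabp2, a fatty acid binding protein, made up most of that sum, at 9030.5 ± 2097 FPKM in control and 19955 ± 6643 in TAI (SD, n = 3), and Apoa4, an apolipoprotein, had a TAI difference of 2.91 ± 0.24 (adjusted p = 0.00028). The 4 B cell markers summed to 3.31 to 365 in the control mice, 1.91 to 67.0 in the TAI mice and 1.20 to 70.1 in the TAI/IVIg mice, and 0 of the 4 passed the test in any comparison. The 4 markers of germinal centre B cells, a cycling cell type, summed to 3.53 to 15.7 in the control mice, 2.39 to 3.45 in the TAI mice and 1.58 to 3.73 in the TAI/IVIg mice. Only 1 of these 4 was tested, and 0 were called. The 5 T cell markers summed to 10.7 to 55.0 in the control mice, 6.23 to 13.2 in the TAI mice and 4.87 to 12.4 in the TAI/IVIg mice, with 0 of the 4 tested called. Control mouse 3 was the highest of all mice in these 3 lymphocyte sums. The 5 smooth muscle markers summed to 479.7 to 619 in the control mice, 534 to 762 in the TAI mice and 112 to 552 in the TAI/IVIg mice, with 0 called. The 5 Paneth cell markers summed to 973 to 4723 in the control mice, 1764 to 4862 in the TAI mice and 134 to 1291 in the TAI/IVIg mice, with 1 lower in TAI/IVIg than in control. The 5 goblet cell markers summed to 848 to 1172 in the control mice, 1510.0 to 1969 in the TAI mice and 659 to 1410.0 in the TAI/IVIg mice, with 2 higher in TAI against control, and 2 lower when TAI/IVIg was set against control. The 5 fibroblast markers summed to 56.9 to 81.5 in the control mice, 62.3 to 81.0 in the TAI mice and 19.9 to 40.3 in the TAI/IVIg mice, with 4 lower in TAI/IVIg than in control and 0 called in TAI. The 4 enteroendocrine markers summed to 72.6 to 88.4 in the control mice, 38.5 to 50.5 in the TAI mice and 42.3 to 45.6 in the TAI/IVIg mice, with 1 lower than control in each irradiated group. Of the lists for myeloid cells, endothelium and tuft cells, 4 of 5, 4 of 4 and 1 of 4 markers were tested, and 0 were called. Over all genes tested, 26.1% were lower and 8.81% higher in TAI against control. In TAI/IVIg against control these shares were 37.4% and 9.06%. The 5 crypt stem cell markers summed to 22.5 to 80.1 in the control mice, 20.9 to 28.5 in the TAI mice and 21.0 to 24.8 in the TAI/IVIg mice, and of the 3 tested 1 was lower and 1 higher in TAI. Olfm4 fell from 27.5 ± 29.4 to 1.62 ± 1.13 FPKM (SD, n = 3), a difference of -3.03 ± 0.65 (adjusted p = 0.0084), while Axin2, a target of WNT signalling, rose from 8.73 ± 1.30 to 16.1 ± 3.25 FPKM (SD, n = 3), a difference of 0.81 ± 0.18 (adjusted p = 0.011). The deposited values hold no gene at 0 in all mice, so a marker above 0 in some mouse does not by itself show that its cell type was present. The sums above show smooth muscle and lymphocyte markers in the tissue that the labels call epithelial. The part of these cell types in the members' levels was not tested.

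Nearly all members were lower in the TAI mice than in the control mice. In the fit without the filter 48 of the 54 members were lower at an adjusted p under 0.05, and 8.72% of all 31685 genes were lower. With the filter 37 of 40 were lower and 0 higher, against 26.1% of the 13056 genes tested that were lower and 8.81% that were higher. Of the 23 tested members with at least 1 irradiated mouse at 1 FPKM, 20 were lower in TAI and 20 in TAI/IVIg against control. All 3 TAI mice lay below all 3 control mice for 52 of the 54 members, against 19.8% of all genes listed. The median difference over the 40 was -1.55, against -0.23 over all genes tested. Without control mouse 1 it was -1.89 with 37 members lower. With the library medians set equal, which moved the median of all genes from -0.23 to 0.05, the members' median was -1.26 and 36 were lower, while the calls over all genes went from 3411 lower and 1150 higher to 1823 lower and 2159 higher.

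In levels, the median member had a mean of 13.5% of its control mean in TAI, with 43 of the 54 under 25% and 13 under 10%. In the TAI/IVIg group it was 7.59%, with 49 under 25% and 32 under 10%. The TAI/IVIg group was lower than control in 51 of 54 members without the filter (14.7% of all genes) and in 37 of 40 with it (37.4% of genes lower, 9.06% higher), with a median of -1.92 against -0.39 over all genes. All 3 TAI/IVIg mice lay below all control mice for 51 of 54 members, against 25.3% of all genes. This comparison shares the control mice with the one above. With the library medians set equal, which moved the median of all genes from -0.39 to 0.10, the members' median was -1.43 and 35 were lower, while the calls over all genes went from 4880 lower and 1183 higher to 1894 lower and 2880 higher. Bub3 and Ect2 were the members that lost the call there (adjusted p = 0.11 and 0.051). Leaving out control mouse 1 gave a median of -2.24 and 38 members lower, with Gtse1 past the threshold (-1.36, adjusted p = 0.025). Gtse1, Hjurp and Pttg1 were the tested members not called in either comparison with control. In TAI against control, 4 called members (Bub3, Ckap2, Ect2 and Ncaph) lost the call in fits that left out a mouse, each of them without control mouse 2, without control mouse 3, without TAI mouse 1 and without TAI mouse 3, and Bub3 also without TAI mouse 2 (adjusted p = 0.058 to 0.13).

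Some values rest on shared exons. The exons of 11 members (Ccna2, Plk1, Cdc20, Ube2c, Cenpk, Cdca8, Kif4, Kif20a, Nusap1, Prc1 and Ncapg) share bases with a gene on the other strand, and since the use of strand in counting is not given in the sources used here, reads from there cannot be told apart. Top2a and Ncapd2 hold small RNA genes on their own strand.

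**Figure D2:**
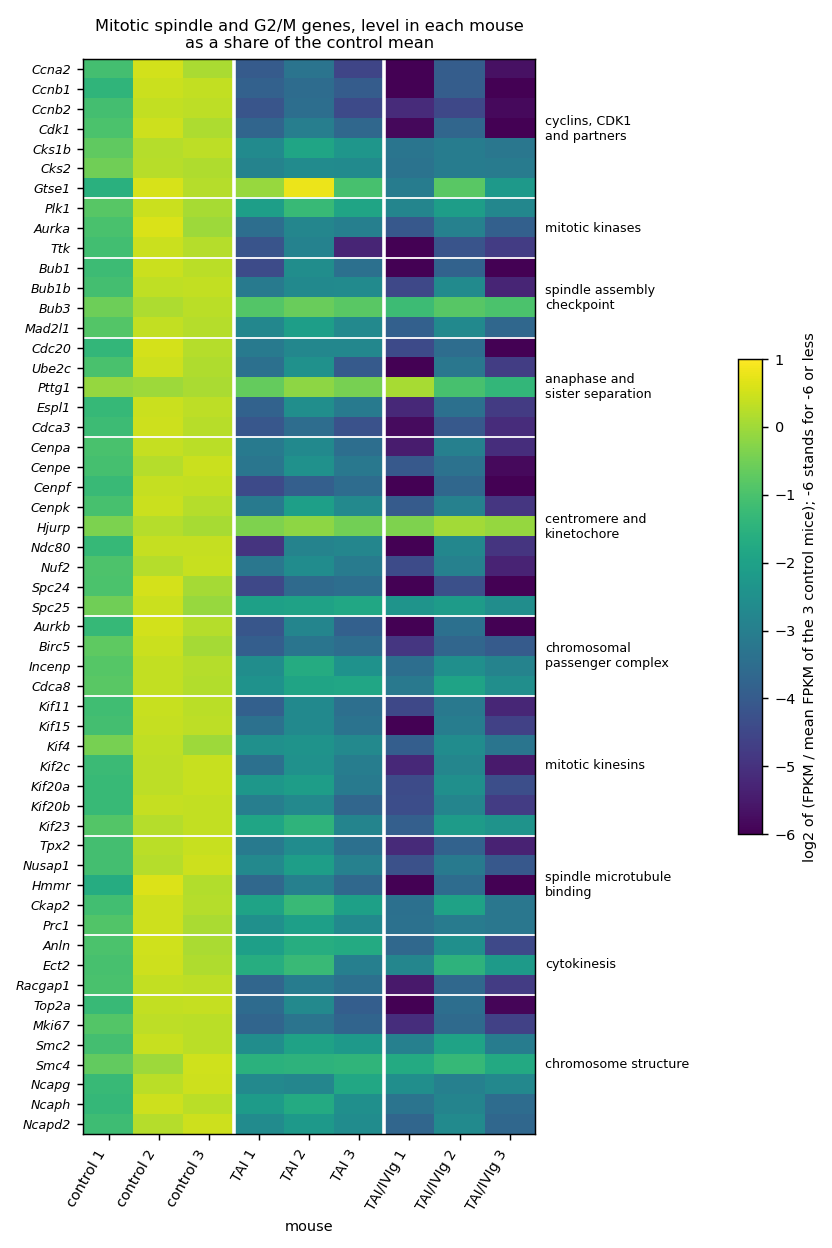
Level of each of the 54 members (rows, grouped by role) in each of the 9 mice (columns), as log2 of FPKM over the mean of the 3 control mice, from yellow (above the control mean) to dark blue (low). Control mouse 1 is darker than the other control mice in every row, nearly all rows are dark in TAI and TAI/IVIg, and Hjurp, Pttg1, Bub3 and Gtse1 stay light or mixed.

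Among the cyclins, CDK1 and its partners, 6 of 7 members were lower in TAI with and without the filter. Over all genes these shares were 26.1% and 8.72%. Ccnb1 and Cdk1 passed the filter only through the control mice. Ccnb1 encodes cyclin B1, the partner of CDK1 at mitotic entry. It measured 1.81, 6.57 and 6.23 FPKM in the control mice, 0.346, 0.422 and 0.312 in the TAI mice and 0.0132, 0.321 and 0.0141 in the TAI/IVIg mice, with 1, 23 and 1 reads behind the last 3 values. The groups did not overlap between control and irradiated mice, and TAI/IVIg mouse 2 lay beside the TAI mice while the others held 1 read each. The TAI difference was -1.98 ± 0.34 (adjusted p = 0.0038). Cdk1 (chr10:69335146-69352938, minus strand, GRCm38, GENCODE vM21) was 2.96, 8.10 and 6.37 FPKM in the control mice, 0.438, 0.722 and 0.455 in the TAI mice and 0.101, 0.453 and 0.0725 in the TAI/IVIg mice, with a TAI difference of -2.07 ± 0.29 (adjusted p = 0.0017). Every TAI mouse lay below every control mouse. In the fit without the filter the adjusted p was 0.013 for Ccnb1 and 0.0058 for Cdk1.

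Ccnb2, cyclin B2, and Ccna2, cyclin A2, which acts in S phase and early mitosis, had the largest differences of the tested members in TAI against control. Ccnb2 fell from 7.33, 20.0 and 19.2 FPKM in control to 0.877, 1.40 and 0.716 in TAI, and stood at 0.436, 0.692 and 0.273 in TAI/IVIg, a TAI difference of -2.94 ± 0.34 (adjusted p = 0.00081). Ccna2 fell from 5.68, 17.5 and 13.1 FPKM in control to 0.758, 1.23 and 0.524 in TAI, and stood at 0.177, 0.793 and 0.234 in TAI/IVIg, a TAI difference of -2.73 ± 0.36 (adjusted p = 0.0013). The control mice lay far above all others for both genes. The exons of Ccna2 share 510 bases with Exosc9 on the other strand.

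The small CDK subunits had higher levels in FPKM, which is per length. Cks2 measured 30.4, 52.4 and 49.0 FPKM in control, 5.99, 7.19 and 7.05 in TAI and 4.34, 5.27 and 5.17 in TAI/IVIg, a TAI difference of -2.50 ± 0.20 (adjusted p = 0.00026). Cks1b measured 8.79, 16.5 and 17.5 FPKM in the control mice, 2.28, 3.87 and 2.87 in the TAI mice and 1.48, 1.72 and 1.54 in the TAI/IVIg mice, a TAI difference of -1.89 ± 0.25 (adjusted p = 0.0014). Control, TAI and TAI/IVIg mice formed 3 separate ranges for both. The member of this role that was not called was Gtse1 (ENSMUSG00000022385), a microtubule-binding protein that also restrains p53, at 0.860, 3.82 and 2.97 FPKM in control, 2.43, 4.43 and 1.24 in TAI and 0.304, 1.48 and 0.544 in TAI/IVIg. Its TAI mice overlapped the control mice, with TAI mouse 2 the highest of all 9, and the TAI difference was 0.08 ± 0.43 (adjusted p = 0.90). That difference turned negative without control mouse 1 (-0.33) and without TAI mouse 2 (-0.25).

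The 3 mitotic kinases stood at medians of 12.1% of control in TAI and 8.63% in TAI/IVIg. Plk1, which acts at the centrosomes and at kinetochores, measured 6.93, 16.6 and 13.0 FPKM in control, 2.92, 5.00 and 3.27 in TAI and 1.72, 2.86 and 1.82 in TAI/IVIg, a TAI difference of -1.43 ± 0.30 (adjusted p = 0.008). The 3 control mice lay above the TAI mice and the TAI mice above the TAI/IVIg mice. Aurka, the centrosomal Aurora kinase, was at 8.89 ± 4.54 and 1.07 ± 0.244 FPKM in control and TAI (SD, n = 3), a TAI difference of -2.15 ± 0.32 (adjusted p = 0.0021). Ttk, the checkpoint kinase MPS1, did not pass the filter, with 3 to 14 reads in each TAI mouse and 51 to 154 in the control mice.

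With the filter, 4 of 4 members of the spindle assembly checkpoint were lower in TAI, beside 26.1% of all genes tested. Among them was the smallest fall of the called members. Bub1, Bub1b and Mad2l1 passed the filter only through the control mice. Without the filter 3 of the 4 were lower, beside 8.72% of all genes, and Bub3 was the one not called. Bub1, a kinase of the checkpoint, measured 1.23, 3.85 and 3.38 FPKM in control, 0.134, 0.480 and 0.264 in TAI and 0.0128, 0.203 and 0.0411 in TAI/IVIg, a TAI difference of -1.49 ± 0.28 (adjusted p = 0.005). Mad2l1, the MAD2 protein that restrains CDC20, measured 1.48, 3.47 and 3.13 FPKM in the control mice, 0.397, 0.637 and 0.412 in the TAI mice and 0.186, 0.421 and 0.213 in the TAI/IVIg mice, a TAI difference of -1.28 ± 0.23 (adjusted p = 0.0041). Bub1 and Mad2l1 control mice lay above every irradiated mouse, and the fit without the filter gave adjusted p-values of 0.015 and 0.013. Bub3 (ENSMUSG00000066979), which binds BUB1 and BUBR1 and is needed for their place at kinetochores, stood at 4.93, 7.83 and 8.70 FPKM in control, 3.92, 4.71 and 4.17 in TAI and 3.14, 4.08 and 3.64 in TAI/IVIg. Its TAI mean was 59.6% of control and the difference -0.60 ± 0.19 (adjusted p = 0.039), and with library medians equal it was -0.32 with an adjusted p of 0.10, which misses the threshold. The fit without the filter gave an adjusted p of 0.081, and the alternatives ranged up to 0.13.

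Among the genes of anaphase and sister separation, 3 of the 4 members that passed the filter were lower in TAI, beside 26.1% of all genes tested. Without the filter 4 of 5 were lower, beside 8.72% of all genes. Cdca3 passed the filter only through the control mice, and its adjusted p was 0.0049 in the fit without it. Cdc20 measured 4.44, 16.7 and 13.3 FPKM in control, 1.31, 1.71 and 1.70 in TAI and 0.536, 1.01 and 0.0958 in TAI/IVIg, with 18, 32 and 3 reads in the last group, a TAI difference of -2.11 ± 0.41 (adjusted p = 0.0056). Ube2c, the ubiquitin-conjugating enzyme of the anaphase promoting complex, was at 8.10, 22.5 and 18.5 FPKM in the control mice, 1.55, 3.00 and 1.01 in the TAI mice and 0.257, 1.74 and 0.619 in the TAI/IVIg mice, a TAI difference of -2.56 ± 0.42 (adjusted p = 0.0031). The control mice lay above all other mice for both. Cdca3, a trigger of mitotic entry, was at 4.70, 15.0 and 12.9 FPKM in the control mice, 0.631, 0.964 and 0.574 in the TAI mice and 0.194, 0.657 and 0.312 in the TAI/IVIg mice, a TAI difference of -2.66 ± 0.35 (adjusted p = 0.0014). The exons of Cdc20 and Ube2c share 53 and 592 bases with genes on the other strand.

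Pttg1 (ENSMUSG00000020415) encodes securin, the inhibitor that holds separase until anaphase. It measured 17.5, 18.6 and 20.2 FPKM in control, 11.9, 16.5 and 14.0 in TAI and 19.7, 9.15 and 7.27 in TAI/IVIg. All TAI mice lay below the control mice, but TAI/IVIg mouse 1 was within the control range and the other TAI/IVIg mice were the lowest of all. The difference was -0.39 ± 0.30 (adjusted p = 0.33) in TAI and -0.71 ± 0.30 (adjusted p = 0.079) in TAI/IVIg, and without TAI/IVIg mouse 1 the latter was -1.11 with an adjusted p of 0.0031. Espl1, the separase itself, fell short of the filter and stood at 11.9% of control in TAI.

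The centromere and kinetochore genes stood at a median of 12.9% of control in TAI and 6.50% in TAI/IVIg. Cenpa, the histone H3 variant that marks the centromere, was at 2.07, 5.44 and 5.01 FPKM in control, 0.468, 0.650 and 0.374 in TAI and 0.0949, 0.542 and 0.122 in TAI/IVIg, a TAI difference of -1.72 ± 0.28 (adjusted p = 0.003). Ndc80, which attaches the kinetochore to microtubules, was below the filter at 0.452, 1.45 and 1.44 FPKM in the control mice, 0.0360, 0.151 and 0.160 in the TAI mice and 0.0171, 0.163 and 0.0367 in the TAI/IVIg mice, and the fit without the filter gave a TAI difference of -0.88 ± 0.19 (adjusted p = 0.025). Each of these had its control mice above all others, and Ndc80 rested on 4, 16 and 19 reads in the TAI mice. Cenpa passed the filter only through the control mice, and its adjusted p was 0.010 in the fit without it. Spc24, of the same complex, had 0 reads in TAI/IVIg mouse 3.

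Hjurp (ENSMUSG00000044783, chr1:88262471-88277633, minus strand), the chaperone that deposits the CENPA protein, was called in none of the 3 comparisons. It measured 10.2, 15.7 and 14.2 FPKM in control, 10.6, 11.8 and 9.48 in TAI and 10.5, 13.6 and 12.3 in TAI/IVIg. The 3 groups overlapped. The differences were -0.29 ± 0.18 (adjusted p = 0.22) for TAI and -0.12 ± 0.18 (adjusted p = 0.59) for TAI/IVIg, and 0.17 ± 0.18 (adjusted p = 0.66) between TAI/IVIg and TAI. No exon of another annotated gene overlaps its exons. With library medians equal the TAI/IVIg difference from control was 0.37, with an adjusted p of 0.078.

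Over all genes, 26.1% were lower in TAI with the filter and 8.72% without it. The chromosomal passenger complex, which corrects wrong attachments and then marks the cleavage site, had 4 of 4 members lower in both fits. Aurkb, its kinase, was at 1.95, 6.95 and 5.74 FPKM in control, 0.277, 0.688 and 0.335 in TAI and 0.0377, 0.459 and 0.0607 in TAI/IVIg, a TAI difference of -1.93 ± 0.34 (adjusted p = 0.0043). Birc5, survivin, was at 8.39, 19.2 and 14.7 FPKM in the control mice, 0.944, 1.46 and 1.24 in the TAI mice and 0.474, 1.09 and 0.894 in the TAI/IVIg mice, a TAI difference of -2.71 ± 0.27 (adjusted p = 0.00049). The control mice lay above all others for both. Aurkb passed the filter only through the control mice, and its adjusted p was 0.014 in the fit without it.

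The mitotic kinesins, motors that build the spindle and its midzone, had 3 of 7 members past the filter and 7 of 7 lower in TAI in the fit without it. That fit called 8.72% of all genes lower. Kif11, Kif4 and Kif23 were the 3, and they passed the filter only through the control mice. The fit without it gave Kif11 an adjusted p of 0.013. Kif11, the motor that pushes the spindle poles apart, measured 1.36, 4.04 and 3.68 FPKM in control, 0.211, 0.469 and 0.279 in TAI and 0.134, 0.339 and 0.0799 in TAI/IVIg, a TAI difference of -1.54 ± 0.27 (adjusted p = 0.0042). Kif20a, a motor of the central spindle, was below the filter at 0.676, 2.03 and 2.20 FPKM in the control mice, 0.336, 0.382 and 0.190 in the TAI mice and 0.0769, 0.285 and 0.0825 in the TAI/IVIg mice, with -0.96 ± 0.24 (adjusted p = 0.037) in the fit without it. Its exons share 1271 bases with Cdc23 on the other strand. The remaining kinesins stood between 11.7% and 25.8% of control in TAI.

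Of the spindle microtubule binding genes, Tpx2, which activates Aurora A on the spindle, was at 2.39, 6.15 and 6.82 FPKM in control, 0.586, 0.853 and 0.480 in TAI and 0.143, 0.365 and 0.127 in TAI/IVIg, a TAI difference of -1.81 ± 0.29 (adjusted p = 0.0028). Prc1, the bundler of the midzone, was at 0.993, 2.52 and 2.01 FPKM in the control mice, 0.326, 0.448 and 0.287 in the TAI mice and 0.176, 0.215 and 0.196 in the TAI/IVIg mice below the filter, with -1.03 ± 0.20 (adjusted p = 0.016) in the fit without it. Tpx2 and Prc1 had control, TAI and TAI/IVIg mice in separate ranges in that order. Tpx2 passed the filter only through the control mice, and its adjusted p was 0.0098 in the fit without it. Ckap2 measured 1.27, 3.82 and 3.23 FPKM in control, 0.726, 1.17 and 0.682 in TAI and 0.259, 0.714 and 0.297 in TAI/IVIg, a TAI difference of -0.96 ± 0.28 (adjusted p = 0.028), and its adjusted p was 0.071 without the filter.

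In cytokinesis, Anln, the anillin scaffold of the contractile ring, was below the filter at 0.730, 2.04 and 1.56 FPKM in control, 0.348, 0.468 and 0.441 in TAI and 0.117, 0.253 and 0.0658 in TAI/IVIg. The fit without the filter gave -0.75 ± 0.20 (adjusted p = 0.047). Ect2, the exchange factor that starts the furrow, was at 1.86, 5.25 and 4.28 FPKM in the control mice, 1.21, 1.58 and 0.478 in the TAI mice and 0.547, 1.35 and 0.830 in the TAI/IVIg mice, a TAI difference of -1.16 ± 0.32 (adjusted p = 0.024), and its adjusted p was 0.062 without the filter. Racgap1, its partner, was at 9.69% of control in TAI.

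Chromosome structure genes stood at medians of 19.6% of control in TAI and 11.0% in TAI/IVIg. Mki67 (chr7:135689784-135716361, minus strand) encodes Ki-67, the coat of mitotic chromosomes that is used as a marker of cycling cells. It measured 5.62, 12.7 and 12.6 FPKM in control, 0.789, 1.05 and 0.774 in TAI and 0.304, 0.860 and 0.415 in TAI/IVIg, a TAI difference of -2.52 ± 0.28 (adjusted p = 0.00076). Top2a, the topoisomerase that untangles sister DNA, measured 3.90, 12.3 and 12.3 FPKM in the control mice, 0.803, 1.45 and 0.632 in the TAI mice and 0.0987, 0.855 and 0.159 in the TAI/IVIg mice, a TAI difference of -2.30 ± 0.39 (adjusted p = 0.0036). Control mouse 1 was the nearest of the control mice to the irradiated mice for both, and still above them.

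Of the condensin subunits, which compact the chromosomes, Smc2 was at 2.36, 6.62 and 6.08 FPKM in control, 0.852, 1.28 and 1.06 in TAI and 0.650, 1.30 and 0.599 in TAI/IVIg, a TAI difference of -1.46 ± 0.30 (adjusted p = 0.0076). Smc4, its partner in both condensins, was at 8.65, 13.7 and 19.5 FPKM in the control mice, 4.81, 5.00 and 5.21 in the TAI mice and 4.27, 5.65 and 4.15 in the TAI/IVIg mice, a TAI difference of -1.25 ± 0.25 (adjusted p = 0.0063). Smc4 kept 35.9% of its control mean in TAI, the highest of this role, and Ncapg, Ncaph and Ncapd2 stood between 18.1% and 23.4%.

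**Figure D3:**
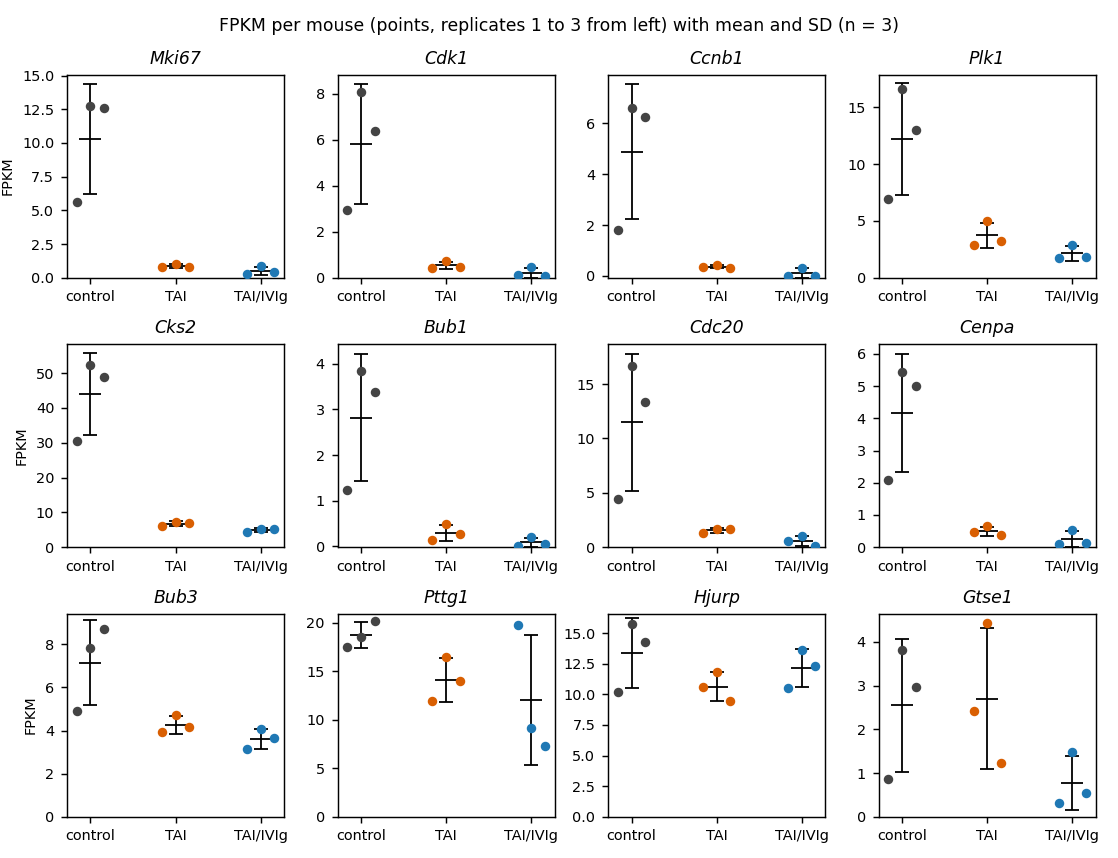
FPKM of 12 members in each mouse (points, replicates 1 to 3 from left to right) with mean and SD of 3 mice, one panel a gene and groups on the x axis, each y axis on a linear scale that includes 0. Most panels show a control group well above both irradiated groups, with control mouse 1 the lowest of the control mice, and Hjurp, Pttg1 and Gtse1 show groups that overlap.

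Between TAI/IVIg and TAI no member was called. Among the 40 tested, 39 had a negative difference, beside 9084 of all 13056 genes tested. The members' median was -0.29 against -0.13 over all genes, and 2 members (Cks1b and Gtse1) had an unadjusted p under 0.05. That count was 6 with only the 6 mice compared in the fit and 14 with the replicate block on those mice, and 0 members passed at an adjusted p under 0.05 in either. The same tests called 0% of all genes lower and 0% higher at an adjusted p under 0.05, and at an unadjusted p under 0.05, 11.2% were lower and 1.64% higher. The smallest adjusted p of a member was 0.369. All 3 TAI/IVIg mice lay below all 3 TAI mice for 13 of the 54 members, against 12.3% of all genes. TAI/IVIg shares its TAI mice with the comparison of TAI with control.

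In levels, 53 of the 54 members had a lower mean in TAI/IVIg than in TAI, and the median member stood at 51.7% of its TAI mean. The matching share and median over all genes were not taken. In the fit, 9084 of the 13056 genes tested had a negative difference between these groups. By mouse, TAI/IVIg mice 1 and 3 had a median member at 4.86% and 4.03% of control, TAI/IVIg mouse 2 at 12.9%, and the TAI mice at 11.4%, 17.1% and 12.6%. Mouse 2 of TAI/IVIg therefore lay within the TAI range. The low levels rest on few reads, with 15 members under 10 reads in TAI/IVIg mouse 1 and 19 in mouse 3. Leaving out TAI/IVIg mouse 2 gave a median difference of -0.43 and still 0 members called.

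The size of this difference, and the sign for some members, depended on scaling. With library medians equal the members' median was -0.09 with 32 of 40 negative, while the median of all genes went from -0.13 to 0.08. Quantile normalization gave -0.04 with 26 negative. The 3 lowest differences were Gtse1 at -1.02 ± 0.43 (adjusted p = 0.38), Cdc20 at -0.77 ± 0.41 (adjusted p = 0.43) and Ube2c at -0.63 ± 0.42 (adjusted p = 0.52). The 3 highest were Hjurp at 0.17, Smc4 at -0.09 ± 0.25 (adjusted p = 0.89) and Ect2 at -0.11 ± 0.32 (adjusted p = 0.89). The 95% intervals of the 40 differences ran from -2.00 to 0.62 at their ends, 38 of them contained 0, and a p that misses the threshold does not show that the groups were alike.

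**Figure D4:**
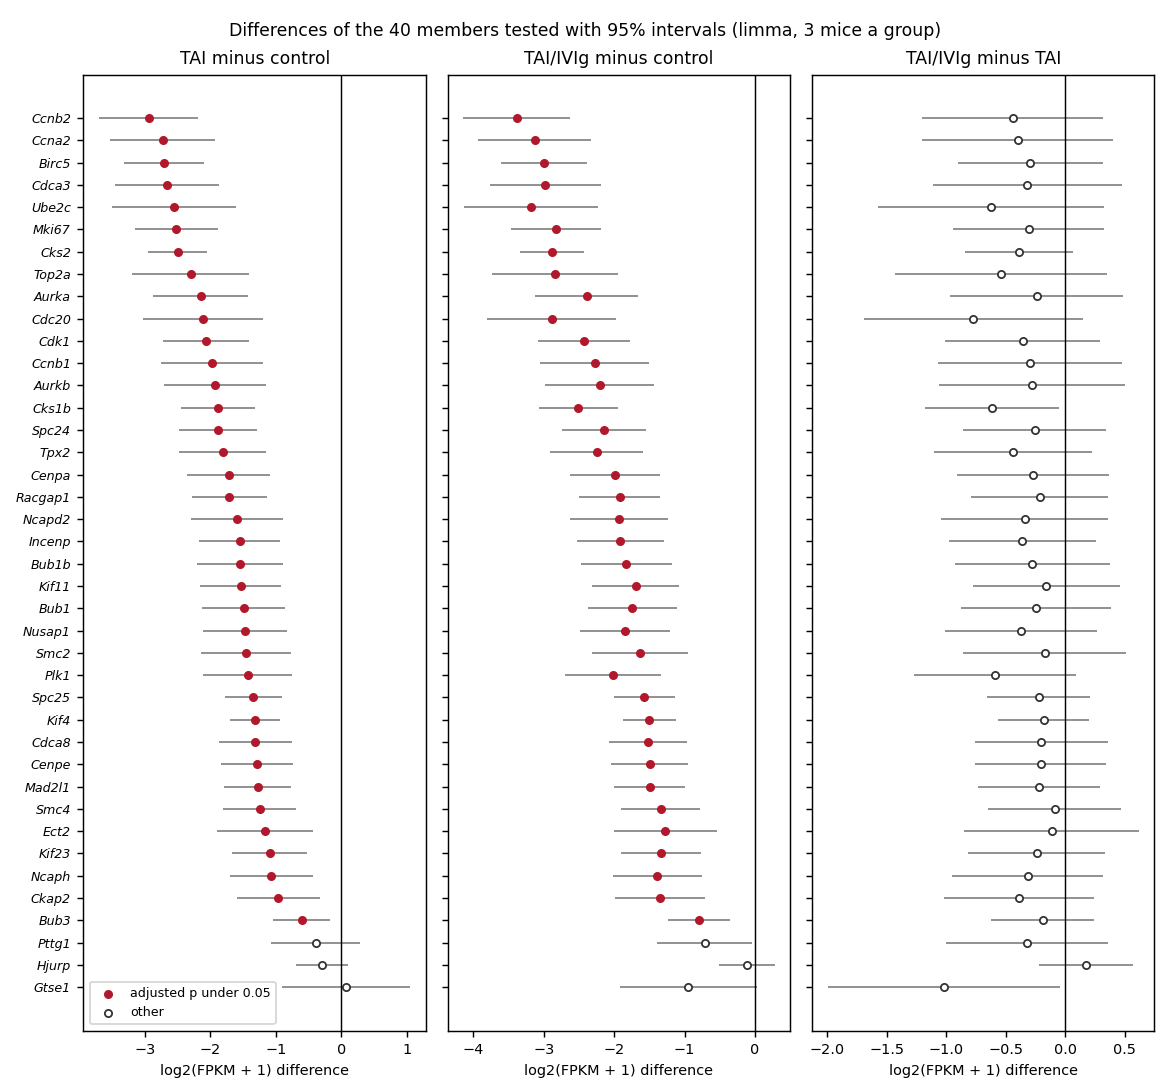
Difference in log2(FPKM + 1) for the 40 members tested (rows, ordered by the TAI difference), with 95% intervals from limma, for TAI minus control, TAI/IVIg minus control and TAI/IVIg minus TAI (panels, each with its own x axis in log2 units). Filled points have an adjusted p under 0.05: 37, 37 and 0 of 40. Gtse1, Hjurp and Pttg1 are open in the first panel.

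Other genes of the cell cycle, taken from lists chosen with earlier results of these data known, were tested in TAI against control, where 26.1% of all genes tested were lower and 8.81% higher. Of 65 further mitosis genes, 31 were tested and 26 were lower, with a median of -1.27. Since 12 of the 31 passed the filter only through the control mice, these had to have a lower mean after irradiation, and the fit without the filter gave 48 of the 65 lower, against 8.72% of all genes. Among those tested, the largest falls were Nek2, a centrosomal kinase, at -2.25 and Tacc3, a spindle protein, at -2.23. Psrc1, which binds microtubules, was the 1 called higher, from 0.488 ± 0.139 to 4.09 ± 2.01 FPKM (SD, n = 3), a difference of 1.70 ± 0.37 (adjusted p = 0.009). Of 38 DNA replication genes, 27 were tested and 23 were lower (median -1.05), with Uhrf1 at -2.07 and Rrm2 at -1.88, and 3 of the 27 passed only through the control mice. Without the filter 22 of the 38 were lower. The APC/C core subunits, which form the complex that Cdc20 activates, had 6 of 14 lower, Anapc7 at -0.60 and Cdc27 at -0.60 among them, and 1 higher, Anapc2 at 0.66, with a median of -0.41. Of cohesin and its loaders 3 of 11 were lower (Smc3 at -0.80, Pds5a at -0.64). Of the DREAM, MuvB and FOXM1 factors 4 of 12 were lower (Tfdp1 at -0.77, Lin9 at -0.72). Neither list had a gene called higher, and with the filter both shares are near that of all genes tested. Without the filter they were 3 of 12 and 5 of 17, against 8.72% of all genes. The members' median of -1.55 stood beside -0.23 over all genes.

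The list of G1 and S cyclins and CDKs also holds Myc, which is neither. Beside the same 26.1% lower and 8.81% higher over all genes, 4 of the 10 genes tested from this list were lower. Ccne1 was at -1.31 and Cdk4 at -1.16, while Ccne2 at 0.39 and Myc at 0.33 did not pass the test. Cell cycle brakes gave 4 lower and 6 higher of 20, with Ccng1 at 1.34 and Btg2 at 1.72, both targets of p53, and with Cdkn2a at -1.72 and Pkmyt1, a kinase that restrains CDK1, at -0.83. In TAI/IVIg against control, 28 of the 31 further mitosis genes and 23 of the 27 replication genes were lower, where 37.4% of all genes tested were. Without the filter it was 59 of 65 and 30 of 38, where 14.7% of all genes were. In the same comparison 11 of 14 APC/C core subunits were lower and 1 higher. Of cohesin and its loaders 6 of 11 were lower, and of the DREAM, MuvB and FOXM1 factors 9 of 12. Without the filter these 3 lists had 8 of 15, 3 of 12 and 11 of 17 lower. Against TAI 0 of these lists had a called gene in either direction.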

How the data were processed

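The data are FPKM values as the authors deposited them, 1 column for each of the 9 mice, and all columns were used. The submitters' processing notes name FastQC, Trimmomatic, STAR, featureCounts and DESeq2, with builds mm10 and GRCm38. Versions, strand setting and annotation are not given in the sources used here. Every value was a whole number of reads (within 0.0001 of a read) at gene lengths equal to GENCODE vM21 exon unions for 97.5% of matched genes, including all members, so GRCm38 coordinates were taken from GENCODE. How the counting treated reads shared by similar genes is not given either.

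For each gene, log2(FPKM + 1) entered a limma model (version 3.58.1, R 4.3.3) of the 3 groups over all mice, with empirical Bayes variances that follow a trend with level. The genes tested had at least 1 FPKM in at least 3 mice. Benjamini-Hochberg adjustment ran over all genes tested in a comparison, and a call is an adjusted p under 0.05. The script was tested on simulated data. The members, lists and tests were chosen with earlier results of these data known. Every member is accounted for by role. Values per mouse are given for 22 members set by name, for the members with the largest and smallest differences, and for those tested and not called. They are not given for every member below the filter. Control and TAI libraries with a shared number deviated together from their group means (r = 0.27, 0.24 and 0.31 over the genes tested). The labels do not say what a number marks. Other ways of matching the mice were not compared, so a pairing of these groups was not tested. The correlations of TAI/IVIg libraries with the other groups ran from -0.30 to 0.20.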

Additional observations from a re-analysis of the deposited data

How the results depend on the processing

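No alternative changed the direction of the members' medians, and the members called lower ran from 33 to 37 in TAI and from 35 to 38 in TAI/IVIg against control over the 39 or 40 members tested, and were 48 and 51 of 54 without the filter, with 0 called higher and 0 called between TAI/IVIg and TAI. With a pseudocount of 0.1 the medians were -2.48, -3.28 and -0.83 for TAI and TAI/IVIg against control and TAI/IVIg against TAI. On the recovered reads, limma's voom, added after seeing the data, gave -2.66, -3.55 and -0.98 with total library sizes and -2.43, -3.04 and -0.69 with median-ratio sizes. For TAI/IVIg against control the median was -1.54 without the filter, -1.43 with library medians equal and -1.46 with quantile normalization. Leaving out 1 mouse gave medians of -1.89 to -1.37 for TAI against control, the lowest without control mouse 1. These fits kept the 13056 genes tested with all 9 mice, a choice made after seeing that the filter, applied again without a control mouse, leaves 23 members. The replicate block gave 37 members lower in TAI and 38 in TAI/IVIg against control, and Gtse1 then passed in the latter (adjusted p = 0.037 with all 9 mice), and it changed no other call.

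Signs turned as follows, each for a difference that was not called. Gtse1 in TAI against control ran from -0.33 to 0.39 over the fits without 1 mouse, and Hjurp in TAI/IVIg against control from -0.29 to 0.0014. Hjurp was also 0.37 with library medians equal, 0.26 with quantile normalization and 0.39 with voom at median-ratio sizes. In TAI/IVIg against TAI, library medians set equal gave 0.0129 for Bub3, 0.0023 for Cdca8, 0.0459 for Kif11, 0.0235 for Kif4, 0.0891 for Ect2, 0.0303 for Smc2 and 0.117 for Smc4. Quantile normalization gave 0.0322 for Aurka, 0.0187 for Bub3, 0.0532 for Mad2l1, 0.0464 for Cenpe, 0.0393 for Spc25, 0.076 for Cdca8, 0.0967 for Kif11, 0.104 for Kif4, 0.0467 for Kif23, 0.167 for Ect2, 0.0408 for Racgap1, 0.102 for Smc2 and 0.0977 for Smc4. Voom at median-ratio sizes gave 0.0224 for Bub3, 0.098 for Ect2 and 0.161 for Smc4. Ect2 ran from -0.346 to 0.0573 without 1 mouse. The cause of these turns was not tested. Of the other single-gene comparisons, 1973 kept their direction and side of the threshold, 29 lost a call and 4 gained one. The planned count tests were not run, because the deposited unit is FPKM. Depth limits the lowest members, several of which rest on under 10 reads in a mouse.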
